A study of Rattus norvegicus with 49 samples.

Results

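The nephron segment markers are genes whose products define the successive parts of the kidney's filtering unit: podocytes of the glomerulus, the proximal tubule, the loop of Henle, the distal tubule and the collecting duct. The list holds 38 genes chosen by name, and 37 of them were measured, out of 14217 genes on the arrays. A probe set, the group of short probes that reports 1 transcript, counted for a gene when it was annotated to exactly 1 symbol, and the one with the highest mean over all 49 arrays was used. By segment, the measured markers were 3 of podocytes, 15 of the proximal tubule, 5 of the loop, 4 of the distal tubule, and 6 of principal and 4 of intercalated cells in the collecting duct. Trpm6, a magnesium channel of the distal tubule, had no probe set with a single symbol and is not analysed here.

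The kidneys came from male Harlan Sprague Dawley rats, an outbred stock, which received propylene glycol phenyl ether, a glycol ether solvent, in corn oil by gavage on 5 consecutive days at 5 mL/kg. The rats were 6 to 8 weeks old when assigned to groups, were fed the NTP-2000 diet, and were killed on the day after the last dose. The 1, 10, 100 and 1000 mg/kg groups had 4 kidney arrays each, the 500 mg/kg group had 3 here (4 in the series text), and the controls, given corn oil alone (0 mg/kg), had 5. A further group at 2000 mg/kg was killed moribund and gave no tissue. One protocol text calls the agent MCHM, whereas the title and each sample's own compound label say propylene glycol phenyl ether, which is the name used here. Titles number the samples as biological replicates, and nothing else ties them to single animals, so p-values measure the spread between these samples. Values are log2 levels summarised by RMA (robust multi-array average), so a difference of 1 is a 2-fold difference. Levels of different genes depend on their probes and are not compared with each other.

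Plasma is filtered at the podocytes, whose interlocking processes carry the slit diaphragm. The proximal tubule then takes back glucose, phosphate, amino acids and filtered protein, and secretes organic ions. The thick limb of the loop reabsorbs sodium chloride without water, and the distal tubule and collecting duct make the final adjustments of sodium, calcium, water and acid under hormonal control. In RNA of bulk tissue, fewer cells of a type and less RNA per cell cannot be told apart.

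The markers were first checked against the liver, an organ without nephrons. Whether arrays of both organs were normalized together is unknown, so these differences serve only as a check of the tissue label. In 35 of 37 markers, all 5 kidney arrays of rats given corn oil lay above all 5 liver arrays of such rats, against 32.7% of all genes. The median difference was 4.74 log2 units over the markers and 0.00 over all genes. It exceeded 2 log2 units in 30 markers and 5 log2 units in 17. Calb1, the calcium buffer calbindin of the distal tubule, differed by 8.97, and Umod, uromodulin, secreted by the thick limb and the main protein of normal urine, by 8.68. These sizes depend on each probe's background in liver and are not ranked. Slc22a8, a basolateral organic anion transporter, differed by 1.30, with a mean of 11.38 in kidney and 10.08 in liver. The 2 exceptions were Slc5a1, the glucose transporter SGLT1 of the late proximal tubule, whose kidney arrays spanned 4.73 to 5.36 and overlapped liver arrays at 3.94 to 4.86, and Pvalb, the calcium buffer parvalbumin, which was lower in kidney, at 3.49 to 3.70 against 3.94 to 4.34 in liver. Neither gene thus had all kidney arrays above the liver arrays, and its dose values are read with that limit.

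**Figure D1:**
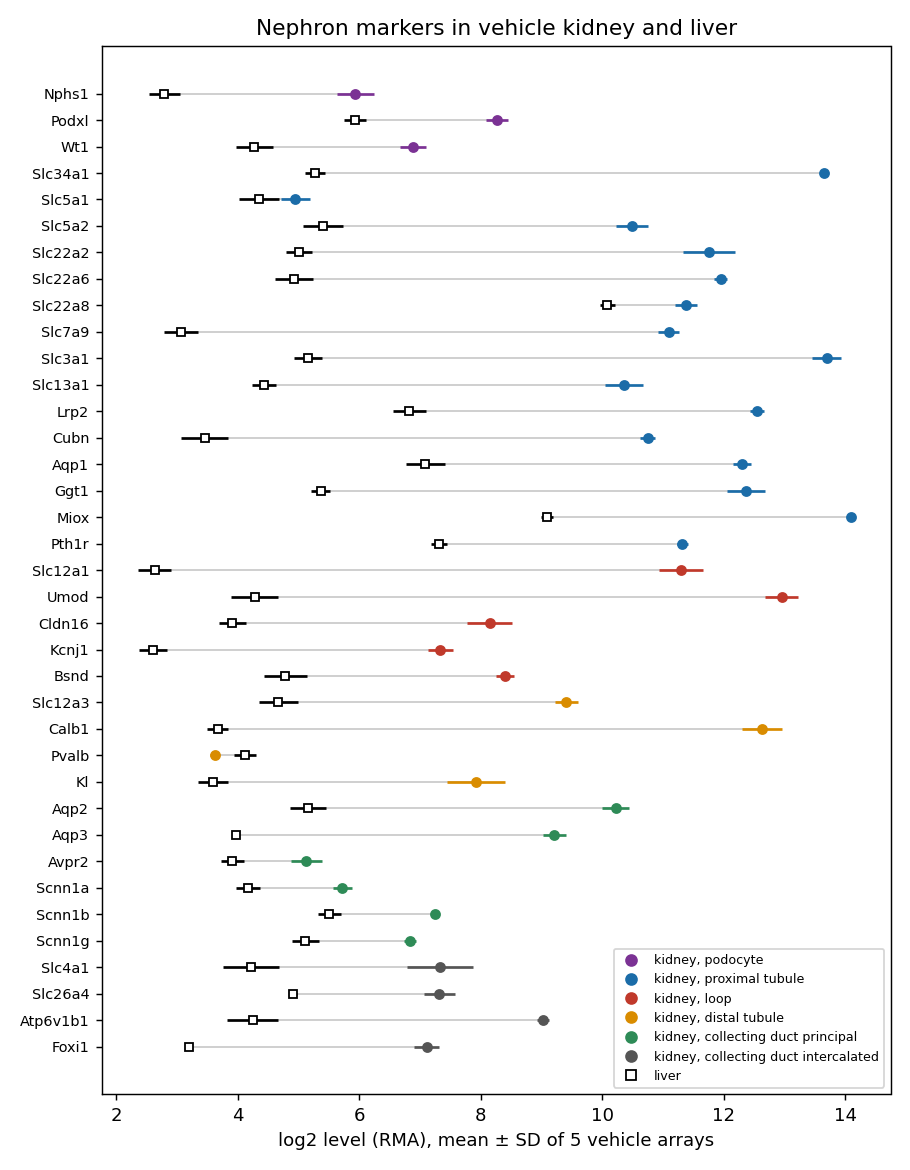
Each row is 1 of the 37 measured markers, with its log2 level as mean ± SD of 5 arrays of rats given corn oil. Filled circles are kidney, coloured by segment, and open squares are liver; 35 markers had all kidney arrays above all liver arrays, and Slc5a1 and Pvalb did not.

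No nephron marker passed the test at any dose. The test was limma with 1 mean per dose over the 24 kidney arrays and Benjamini-Hochberg adjustment over 14217 genes, and a gene was called at an adjusted p under 0.05. At 1000 mg/kg, 0 of 37 markers were called against 0 mg/kg, while 1.55% of all genes were. Unadjusted p-values under 0.05 were found for 6 markers (2 higher and 4 lower, 16.2% of them), against 13.3% of all genes. The median difference between 1000 and 0 mg/kg was -0.03 over the markers and -0.02 over all genes. Single markers lay between -0.52 for Calb1 and 0.41 for Slc12a1. The trend across the 6 doses, taken as ranks 0 to 5, called 0 markers, against 1.39% of all genes, and 6 markers had an unadjusted p under 0.05, against 12.5% of all genes.

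The lower doses were compared with the same 5 arrays at 0 mg/kg, so their differences share that group. At 1, 10, 100 and 500 mg/kg limma called 0 of 37 markers, and 0% of all genes in each case. At an unadjusted p under 0.05 the 1 mg/kg group had 2 markers, both lower (5.41% of them, against 2.98% of all genes). The 10 mg/kg group had 3 higher and 8 lower (29.7%, against 7.35% of all genes). The 100 mg/kg group had 3 higher and 7 lower (27%, against 6.83% of all genes). The 500 mg/kg group had 2, both lower (5.41%, against 5.08% of all genes). The counts at 10 and 100 mg/kg moved with single arrays. Over 24 arrays left out in turn they ranged from 3 to 14 (8.11% to 37.8%) at 10 mg/kg and from 5 to 12 (13.5% to 32.4%) at 100 mg/kg, where the share of all genes ranged from 4.52% to 8.76% and from 5.48% to 8.39%. In each of these fits the share of the markers was above that of all genes. As the fits share nearly all arrays, they are not separate results. The 11 at 10 mg/kg became 3 (8.11%, against 5.8% of all genes) when replicate 1 of that dose was left out, 5 (13.5%, against 6.55%) for its replicate 3, 6 (16.2%, against 6.82%) for 0 mg/kg replicate 2 and 5 (13.5%, against 4.52%) for 0 mg/kg replicate 3, all of them lower. The 10 at 100 mg/kg became 5 (13.5%, against 5.48%) when replicate 3 of that dose was left out and 6 (16.2%, against 5.85%) for 0 mg/kg replicate 3. The highest counts were 14 at 10 mg/kg, for 0 mg/kg replicate 5 and for 100 mg/kg replicate 3, and 12 at 100 mg/kg, for its replicate 4. Adipocyte markers were high on 7 arrays, 3 of the 4 at 10 mg/kg among them, and with those 7 left out the counts were 3 at 10 mg/kg (8.11%, against 5.98% of all genes) and 5 at 100 mg/kg (13.5%, against 6.7%). The pairs at 1 and 500 mg/kg ranged from 1 to 5 and from 0 to 4 over single arrays left out. Over all 5 doses the smallest adjusted p of any marker was 0.114, for Slc12a3 at 1000 mg/kg. Each adjusted p depends on the p-values of all genes at its dose, so it does not rank the doses for a marker.

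Several markers at the middle doses were singled out after their values were seen. Cubn, cubilin, had 10.14, 10.52, 10.37 and 10.36 at 100 mg/kg, against 10.67, 10.60, 10.90, 10.74 and 10.84 at 0 mg/kg, without overlap (difference -0.40, adjusted p = 0.388). How many of all genes had no overlap at 100 mg/kg was not counted. Kcnj1, the potassium channel ROMK of the thick limb, had 7.45, 8.02, 8.23 and 7.88 at 100 mg/kg, against 7.19, 7.35, 7.49, 7.57 and 7.06 at 0 mg/kg, where only the lowest array at 100 mg/kg fell among those at 0 mg/kg (difference 0.56, adjusted p = 0.545). Bsnd, barttin, the subunit of the basolateral chloride channels, had 8.25, 8.05, 8.27 and 7.96 at 10 mg/kg, against 8.45, 8.60, 8.39, 8.23 and 8.29 at 0 mg/kg, and the groups overlapped (difference -0.26, adjusted p = 0.640). At 1000 mg/kg these 3 genes differed from 0 mg/kg by 0.01, 0.15 and -0.05, so their values at the middle doses had no counterpart of that size at the top dose. That does not extend to every marker. Slc12a3 differed by -0.51 at 100 mg/kg, where all its arrays lay below those at 0 mg/kg, and by -0.40 at 1000 mg/kg. Slc22a2 differed by 0.50 at 10 mg/kg and by 0.38 at 1000 mg/kg.

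By segment, and always against the same 0 mg/kg arrays, the loop had 4 positive differences and 1 negative, that of Bsnd, in each of the 5 dosed groups. The distal tubule, without Pvalb, had 3 negative differences of 3 at 1, 10 and 1000 mg/kg and 2 of 3 at 100 and 500 mg/kg. With Pvalb, 4 of 4 were negative at 1, 10 and 1000 mg/kg, 3 of 4 at 100 mg/kg and 2 of 4 at 500 mg/kg. Podocyte markers had 0 positive differences of 3 at 10 mg/kg and 2 of 3 at 1000 mg/kg.

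The precision of the arrays was read from the intervals. The 95% confidence interval of each difference from 0 mg/kg, unadjusted for the number of genes, lay within a 2-fold difference either way for 37 of 37 markers at every dose. With 1 array left out, 41 of 4440 such intervals passed 2-fold, in 5 markers (Slc12a1, Slc22a2, Calb1, Kcnj1 and Slc4a1), the lowest bound being that of Calb1 at 1000 mg/kg without its replicate 2 (-1.10 to -0.35). Within 1.5-fold lay the intervals of 33, 27, 23, 32 and 26 markers for the doses in rising order. The widest interval at 1000 mg/kg was that of Slc12a1, from -0.14 to 0.95. Leaving out 1 array moved several uncalled differences at 1000 mg/kg by over 1.5 times. Cldn16 was 0.09 without 0 mg/kg replicate 3, Slc4a1 0.19 without 0 mg/kg replicate 4, Scnn1b -0.07 without 1000 mg/kg replicate 1 and Slc12a1 0.26 without 1000 mg/kg replicate 3. Podxl ranged from 0.03 (without 1000 mg/kg replicate 2) to 0.14 (without 1000 mg/kg replicate 3), and Slc26a4 from 0.04 (without 0 mg/kg replicate 2) to 0.19 (without 0 mg/kg replicate 3).

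**Figure D2:**
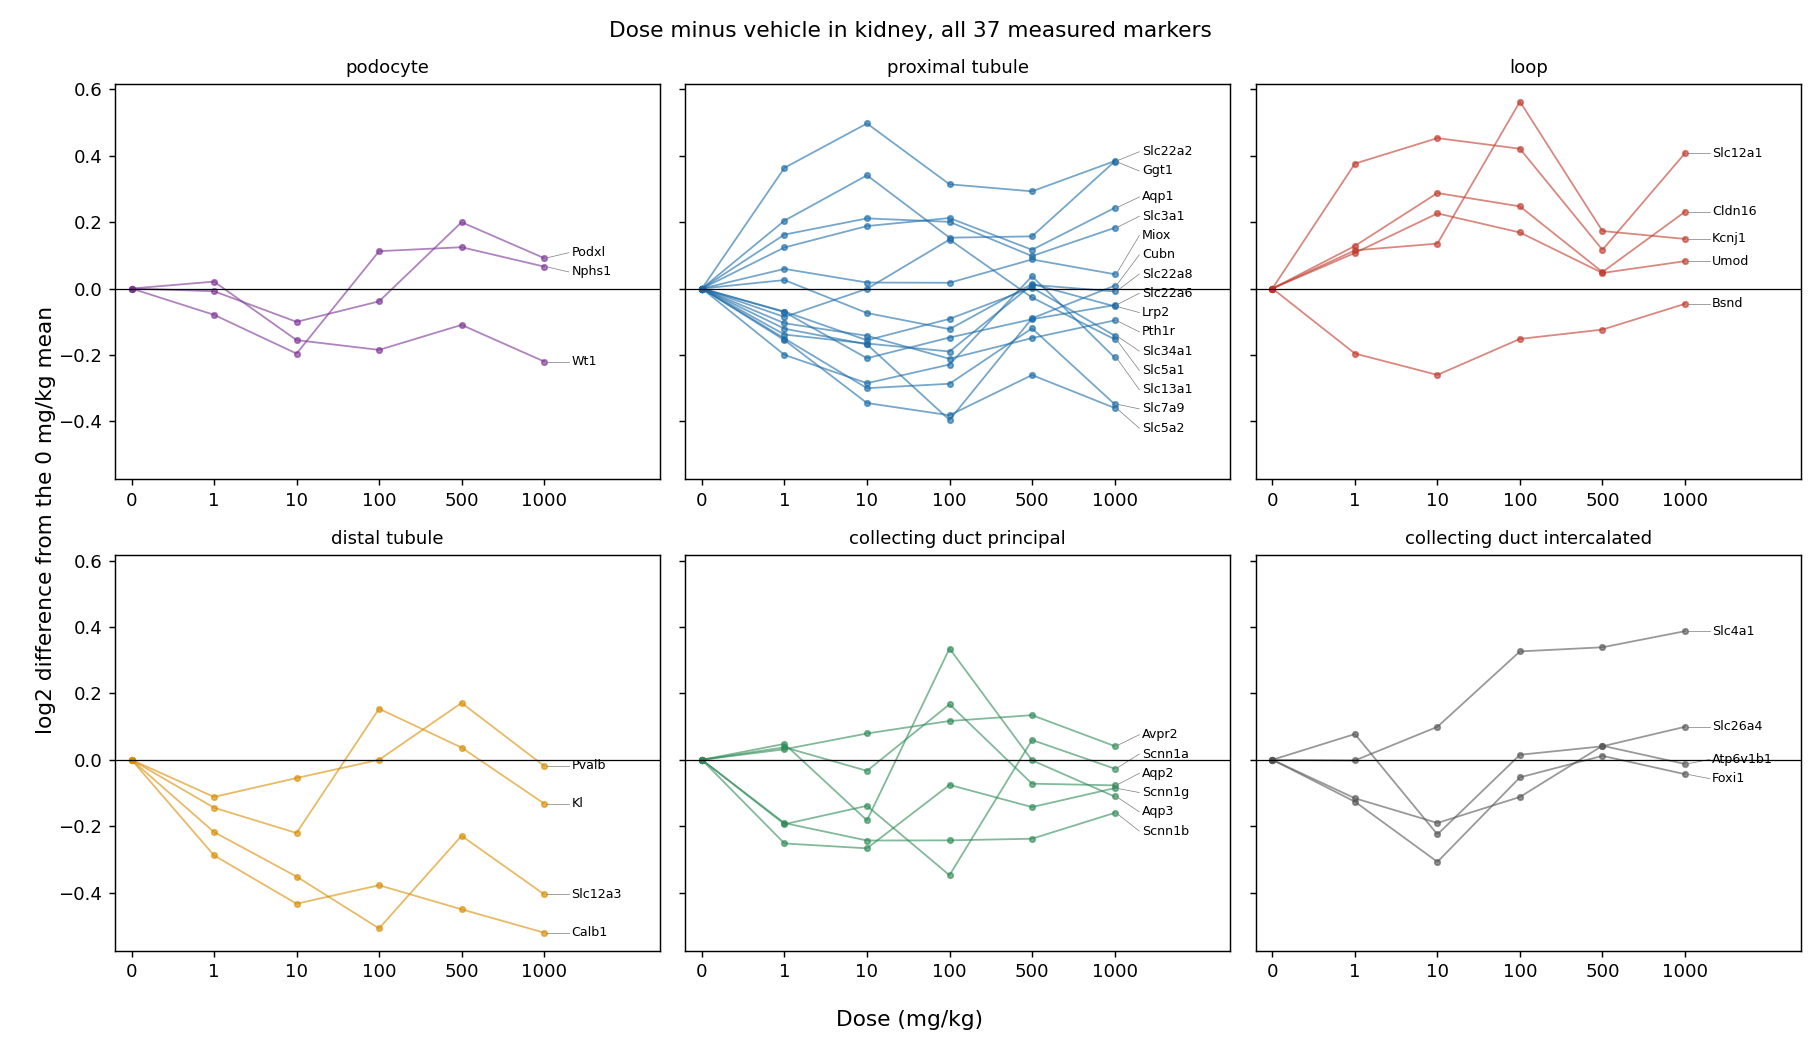
Each line is 1 marker, with its log2 difference from the 0 mg/kg mean in kidney at each dose, in a panel for each segment. All lines start at 0 by construction and share the 0 mg/kg arrays; the markers of a segment spread to both sides of 0 in the proximal tubule, and the differences lie between -0.52 and 0.56.

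**Figure D3:**
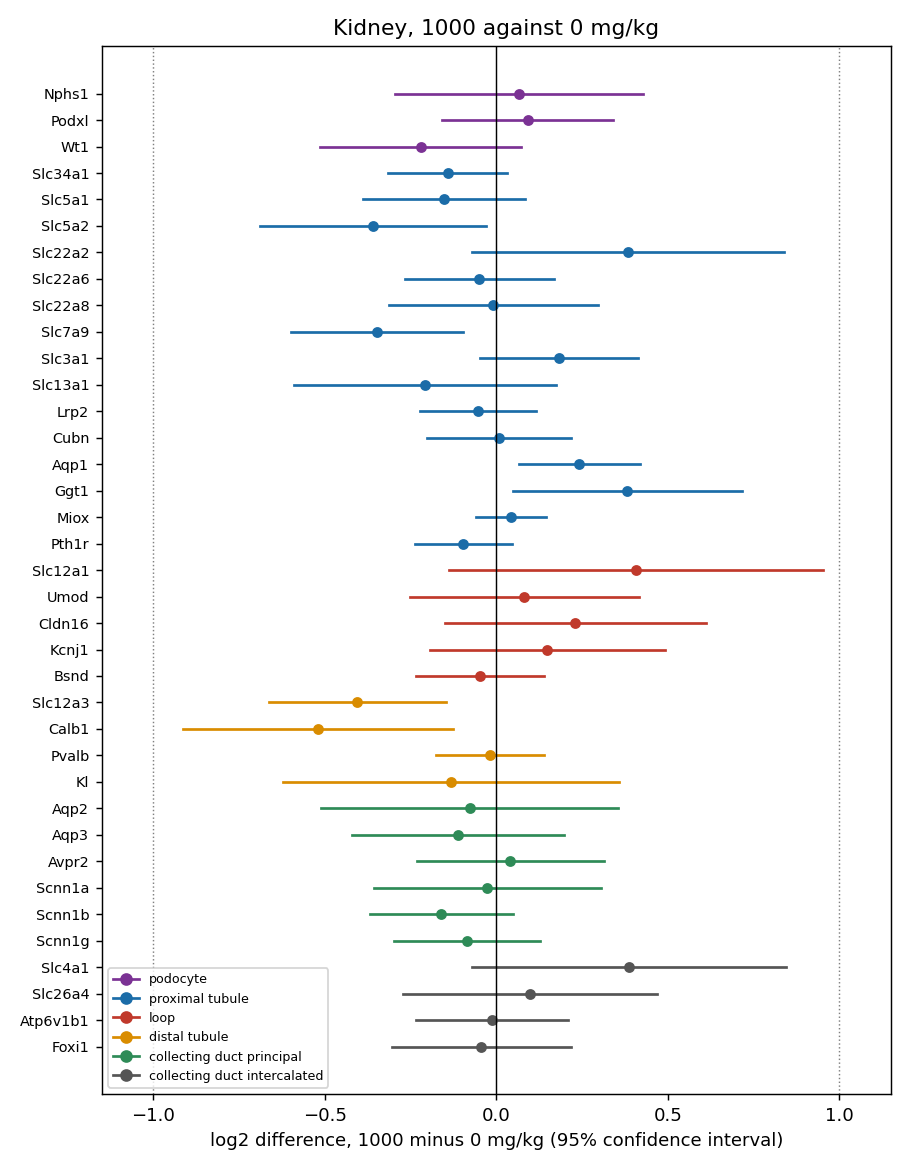
Points are log2 differences in kidney, 1000 minus 0 mg/kg, and bars are 95% confidence intervals from limma, with dotted lines at a 2-fold difference either way. All 37 intervals stay within the dotted lines, and 6 of them exclude 0.

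Among the podocyte markers the arrays at 1000 and 0 mg/kg overlapped throughout. Podxl, podocalyxin, the charged coat protein of the foot processes, had 8.45, 8.54, 8.20 and 8.24 at 1000 mg/kg, against 8.17, 8.04, 8.47, 8.45 and 8.19 at 0 mg/kg. Wt1, a transcription factor that podocytes need, had 6.80, 6.62, 6.49 and 6.75 at 1000 mg/kg, against 6.60, 7.02, 7.09, 7.01 and 6.70 at 0 mg/kg. The difference was 0.09 ± 0.12 (SE) for Podxl (limma adjusted p = 0.823) and -0.22 ± 0.14 for Wt1 (adjusted p = 0.551). Neither exceeded the spread between arrays. Nphs1, nephrin, the backbone of the slit diaphragm, averaged 6.00 ± 0.42 (SD, n = 4) at 1000 mg/kg and 5.93 ± 0.30 (SD, n = 5) at 0 mg/kg. A second, dimmer Nphs1 probe set had the opposite sign, with means of 4.42 at 1000 mg/kg and 4.73 at 0 mg/kg.

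The proximal tubule gave the longest list, with 6 positive and 9 negative differences at 1000 mg/kg and a median of -0.05. Slc34a1, the phosphate transporter NaPi-IIa of the brush border, had 13.43, 13.52, 13.58 and 13.52 at 1000 mg/kg, against 13.61, 13.65, 13.75, 13.63 and 13.63 at 0 mg/kg. Every array at 1000 mg/kg lay below every array at 0 mg/kg, by a mean of only 0.14 log2 units (SE 0.08, adjusted p = 0.504). Arrays without overlap, in either direction, were found in 2 of 37 markers, 5.41%, against 4.71% of all genes. At 10 and 100 mg/kg Slc34a1 reached 13.27 and 13.31 on single arrays, below the 4 arrays at 1000 mg/kg.

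Slc7a9 and Slc3a1 encode the light and heavy subunits of the cystine transporter of the brush border. Slc7a9 had 10.58, 10.83, 10.68 and 10.90 at 1000 mg/kg, against 11.06, 11.06, 11.30, 11.21 and 10.85 at 0 mg/kg. Only the highest array at 1000 mg/kg lay above the lowest at 0 mg/kg, and the difference was -0.35 ± 0.12 (SE, adjusted p = 0.181). Slc3a1 averaged 13.88 ± 0.12 (SD, n = 4) at 1000 mg/kg and 13.69 ± 0.24 (SD, n = 5) at 0 mg/kg, a difference of 0.18 (adjusted p = 0.520). The subunits of 1 transporter thus had differences of opposite sign, and neither was called.

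Aqp1, the water channel of the proximal tubule and thin descending limb, had 12.54, 12.55, 12.64 and 12.43 at 1000 mg/kg, against 12.42, 12.28, 12.15, 12.16 and 12.46 at 0 mg/kg. One array at 1000 mg/kg lay within the 0 mg/kg arrays, and the difference was 0.24 ± 0.08 (SE, adjusted p = 0.185). A second Aqp1 probe set had 10.86 at 1000 mg/kg and 10.57 at 0 mg/kg, a difference of 0.28. Ggt1, the brush border enzyme that starts glutathione breakdown, differed by 0.38 (adjusted p = 0.292), and Slc5a2, the glucose transporter SGLT2 of the early proximal tubule, by -0.36 (adjusted p = 0.322). The organic ion transporters did not share a sign, with 0.38 for Slc22a2, the cation transporter OCT2, -0.05 for Slc22a6, the anion transporter OAT1, and -0.01 for Slc22a8, the anion transporter OAT3. Lrp2 and Cubn, the receptors megalin and cubilin that retrieve filtered protein, differed by -0.05 and 0.01. Miox, an enzyme of inositol breakdown, averaged 14.14 ± 0.07 (SD, n = 4) at 1000 mg/kg and 14.10 ± 0.06 (SD, n = 5) at 0 mg/kg. The 3 remaining markers were negative, with -0.15 for Slc5a1, -0.21 for the sulfate transporter Slc13a1 and -0.10 for the parathyroid hormone receptor Pth1r.

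In the loop, 4 of 5 markers had positive differences at 1000 mg/kg, with a median of 0.15. Slc12a1, the sodium-potassium-chloride transporter NKCC2 that loop diuretics block, had 12.04, 11.16, 12.15 and 11.48 at 1000 mg/kg, against 11.52, 11.49, 10.81, 11.02 and 11.65 at 0 mg/kg. Its arrays at 1000 mg/kg were split, with 2 above and 2 within the 0 mg/kg arrays, and the difference was 0.41 ± 0.26 (SE, adjusted p = 0.553). Cldn16, a tight junction protein needed for magnesium uptake between cells, had 8.31, 8.28, 8.47 and 8.44 at 1000 mg/kg, against 8.49, 8.22, 7.59, 7.98 and 8.42 at 0 mg/kg. The groups overlapped, and the difference was 0.23 ± 0.18 (SE, adjusted p = 0.659). Umod differed by 0.08, Kcnj1 by 0.15 and Bsnd by -0.05.

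The distal tubule had 4 negative differences of 4 at 1000 mg/kg, with a median of -0.27. Without Pvalb (-0.02), whose kidney arrays lay below those of liver, the median of the other 3 was -0.40. Slc12a3, the thiazide-sensitive sodium-chloride transporter NCC, had 9.08, 8.97, 8.99 and 8.97 at 1000 mg/kg, against 9.52, 9.66, 9.36, 9.19 and 9.31 at 0 mg/kg. All arrays at 1000 mg/kg lay below all at 0 mg/kg, and the difference was -0.40 ± 0.12 (SE, adjusted p = 0.114). For 1, 10, 100 and 500 mg/kg its differences were -0.22, -0.35, -0.51 and -0.23, so the size did not follow the order of the doses. Calb1 had 11.75, 12.72, 12.00 and 11.98 at 1000 mg/kg, against 12.36, 12.84, 12.70, 13.03 and 12.24 at 0 mg/kg. Replicate 2 at 1000 mg/kg was within the 0 mg/kg arrays and the other 3 arrays were below them. The difference was -0.52 ± 0.19 (SE, adjusted p = 0.208), and -0.72 without that replicate (adjusted p = 0.0573). The Calb1 trend had an adjusted p of 0.185, and of 0.0482 without that replicate, the only array whose omission called a marker. Kl, klotho, the co-receptor for the phosphate hormone FGF23, averaged 7.79 ± 0.26 (SD, n = 4) at 1000 mg/kg and 7.92 ± 0.47 (SD, n = 5) at 0 mg/kg.

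Principal cells of the collecting duct had 1 positive and 5 negative differences at 1000 mg/kg, between -0.16 and 0.04. Scnn1b and Scnn1g encode the beta and gamma subunits of ENaC, the sodium channel that aldosterone controls. Scnn1b had 6.83, 7.15, 7.09 and 7.30 at 1000 mg/kg, against 7.16, 7.27, 7.26, 7.28 and 7.29 at 0 mg/kg. Scnn1g had 6.46, 6.95, 6.86 and 6.70 at 1000 mg/kg, against 6.92, 6.67, 6.88, 6.79 and 6.89 at 0 mg/kg. For both genes the arrays at 1000 mg/kg were the more scattered and spanned those at 0 mg/kg on both sides. The differences were -0.16 ± 0.10 (SE, adjusted p = 0.539) for Scnn1b and -0.09 ± 0.10 (adjusted p = 0.801) for Scnn1g, and without replicate 1 at 1000 mg/kg the Scnn1g difference was 0.01. Aqp2 and Aqp3, the apical and basolateral water channels under vasopressin, and Avpr2, the vasopressin receptor, differed by -0.08, -0.11 and 0.04, and Scnn1a, the alpha subunit of ENaC, by -0.03.

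Intercalated cells, which carry acid and base, had 2 positive and 2 negative differences. Slc4a1, the anion exchanger of acid-secreting cells, which red cells also carry, had 7.67, 7.63, 7.93 and 7.63 at 1000 mg/kg, against 7.97, 7.66, 7.16, 6.54 and 7.32 at 0 mg/kg. The arrays at 0 mg/kg spread widely around those at 1000 mg/kg, and the difference was 0.39 ± 0.22 (SE, adjusted p = 0.478). A second Slc4a1 probe set differed by 0.09. The mean of 4 red cell markers spanned 6.98 to 7.12 at 1000 mg/kg and 7.01 to 7.19 at 0 mg/kg, and its part in Slc4a1 was not tested. Slc26a4, pendrin, the chloride-bicarbonate exchanger of base-secreting cells, had 7.15, 7.48, 7.50 and 7.53 at 1000 mg/kg, against 7.12, 7.07, 7.67, 7.47 and 7.24 at 0 mg/kg, a difference of 0.10 ± 0.18 (SE, adjusted p = 0.878). Its groups overlapped over most of their range. Foxi1, the transcription factor of intercalated cells, and Atp6v1b1, a proton pump subunit, differed by -0.04 and -0.01.

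**Figure D4:**
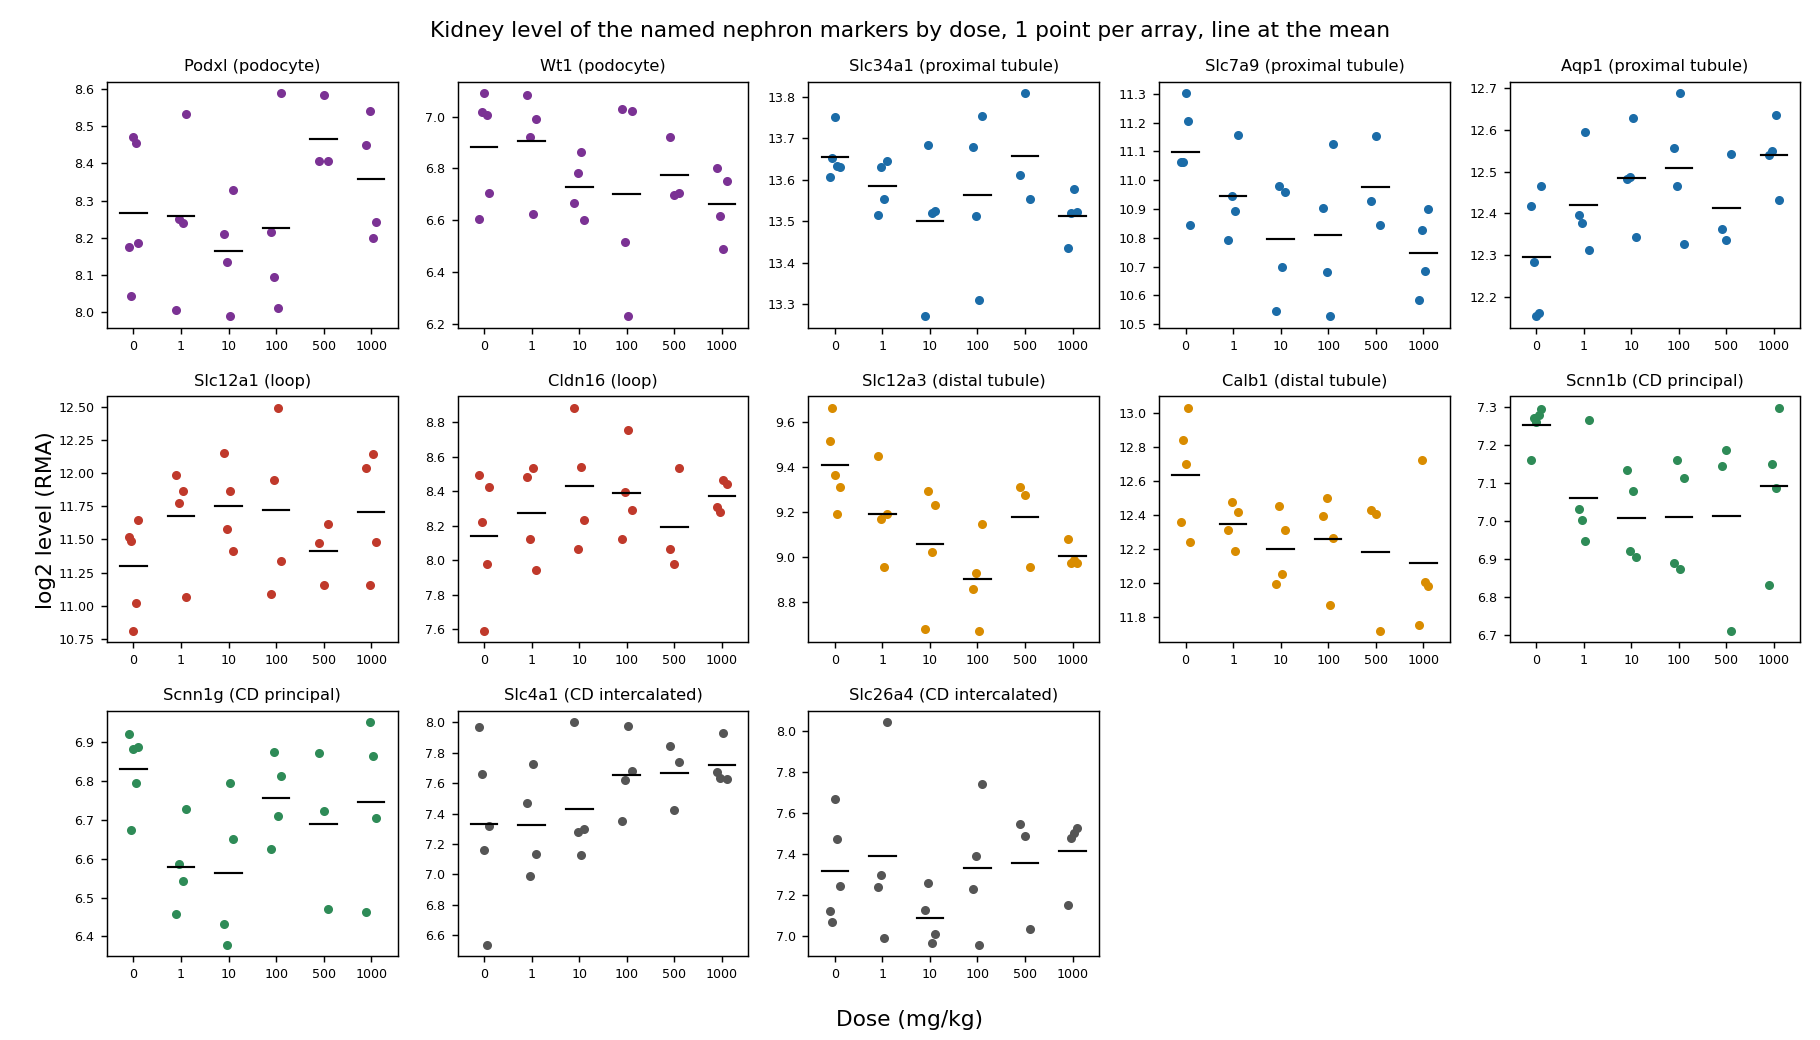
Points are log2 levels of single kidney arrays at each dose in mg/kg, lines are group means, and each panel is 1 of the 13 named markers with its own vertical scale. Only Slc34a1 and Slc12a3 have arrays at 1000 mg/kg that do not overlap those at 0 mg/kg.

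Arrays of the same dose differed more in the typical marker than in the typical gene. The median SD within doses was 0.21 log2 units over the markers and 0.15 over all genes. By segment it was 0.26 in the loop, 0.25 in the distal tubule, 0.24 in intercalated cells, 0.22 in principal cells, 0.22 in podocytes and 0.17 in the proximal tubule. Slc12a1 had the highest SD of the 37, 0.43. Miox had the lowest, 0.05, at levels of 14.03 to 14.22, and whether its probes were near saturation was not measured.

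After this spread was seen, the loop marker Umod was taken as a reference point and the slope of every other gene on Umod was fitted within doses with limma. The Umod arrays had 13.13, 13.09, 12.53, 12.82 and 13.17 at 0 mg/kg, 13.20, 13.00, 13.30 and 12.74 at 1 mg/kg, and 13.48, 13.00, 13.30 and 12.93 at 10 mg/kg. They had 12.74, 13.39, 13.52 and 12.83 at 100 mg/kg, 12.95, 12.86 and 13.19 at 500 mg/kg, and 13.03, 12.98, 13.12 and 13.01 at 1000 mg/kg. Umod thus spanned 0.98 log2 units over the 24 arrays, with both extremes outside the 1000 mg/kg group, whose arrays were close together.

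Of the 36 other markers, 17 had a called slope on Umod. Positive slopes were called for 8 markers, 22.2% of them, against 4.98% of all genes, and negative slopes for 9, 25%, against 3.35% of all genes. The share was larger among brighter genes. With the 7108 brighter genes alone, 618 had a positive and 524 a negative called slope, and of 30 markers 8 and 11. As Umod was chosen with the values known, the counts describe these arrays. A slope of 1 means that a gene was 2-fold higher where Umod was 2-fold higher. In the loop, 2 markers had called slopes, Slc12a1 with 1.48 ± 0.18 and Cldn16 with 1.04 ± 0.12 (SE, adjusted p = 2.45e-05 for each), whereas Bsnd and Kcnj1 had no called slope. The other positive slopes were 1.18 for Slc22a2, 0.99 for Aqp2, 0.87 for Ggt1, 0.84 for Slc4a1, 0.51 for Slc3a1 and 0.34 for Aqp1. The negative slopes were -0.89 for Slc13a1, -0.86 for Slc5a2, -0.74 for Slc26a4, -0.73 for Slc22a8, -0.64 for Slc7a9, -0.59 for Wt1, -0.51 for Podxl, -0.50 for Slc22a6 and -0.37 for Slc34a1. Of the 17 calls, 13 held for each of the 24 arrays left out in turn. The Slc4a1 call was lost for 7 arrays (0 mg/kg replicate 2, 1 mg/kg replicates 3 and 4, 10 mg/kg replicate 1, 100 mg/kg replicates 1 and 3, and 500 mg/kg replicate 2), and also with centred arrays, with averaged probe sets and with the arrays high in adipocyte markers left out. The calls of Aqp1 (0 mg/kg replicate 3, 100 mg/kg replicates 3 and 4), Slc26a4 (0 mg/kg replicate 3, 1 mg/kg replicate 4, 100 mg/kg replicate 3) and Wt1 (100 mg/kg replicate 3) were lost for the arrays given. Leaving out the arrays high in adipocyte markers also ended the calls of Aqp2 and Slc34a1, and quantile normalization that of Slc3a1. A fit with replicate number as a block ended the calls of Aqp1, Slc4a1, Podxl, Slc22a6, Slc26a4 and Wt1.

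The proximal tubule was therefore divided, with 4 markers rising and 6 falling with Umod among its 15. Both subunits of the cystine transporter took part in the division, the heavy subunit gene Slc3a1 with a positive slope and the light subunit gene Slc7a9 with a negative one. As background, Slc5a2 and Slc7a9 are strongest in the early, convoluted proximal tubule of the cortex, while in the rat Ggt1 and Slc22a2 are strong in the straight proximal tubule, which reaches into the outer medulla beside the thick limb. The other proximal tubule markers with a called slope are not placed here. Slc5a1, of the late proximal tubule, had no called slope and lay on the opposite side to Umod on 16 of 24 arrays. Genes of other tissue parts were read in the same fit, 68 in 9 lists, of which 4 had a called positive slope (5.88%, against 4.98% of all genes) and 2 a negative one (2.94%, against 3.35%). In the list of inner medulla and osmolyte genes these were Slc5a3, an inositol transporter, with 1.38 (adjusted p = 3.16e-05), and Nfat5, the transcription factor of the response to high salt, with 0.56 (adjusted p = 0.00275), of 9 genes. Of 10 endothelial genes, Kdr, a VEGF receptor, had -0.46 (adjusted p = 0.00417) and Esam, an adhesion protein, 0.37 (adjusted p = 0.0224). The remaining calls were Cidec of the adipocyte list (1.06) and Slc25a37 of the red cell list (-0.43). The part of tissue make-up in the slopes was not tested. Single arrays show the pattern. Replicate 3 at 0 mg/kg, the lowest in Umod, was the lowest of its group in Slc12a1 (10.81), Ggt1 (11.82) and Slc22a2 (11.14) and the highest in Slc5a2 (10.86) and Slc7a9 (11.30). At 100 mg/kg, replicate 3 had the highest Umod of all arrays, with Slc12a1 at 12.50 and Slc5a2 at 9.59, the highest and lowest values of those genes in kidney.

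**Figure D5:**
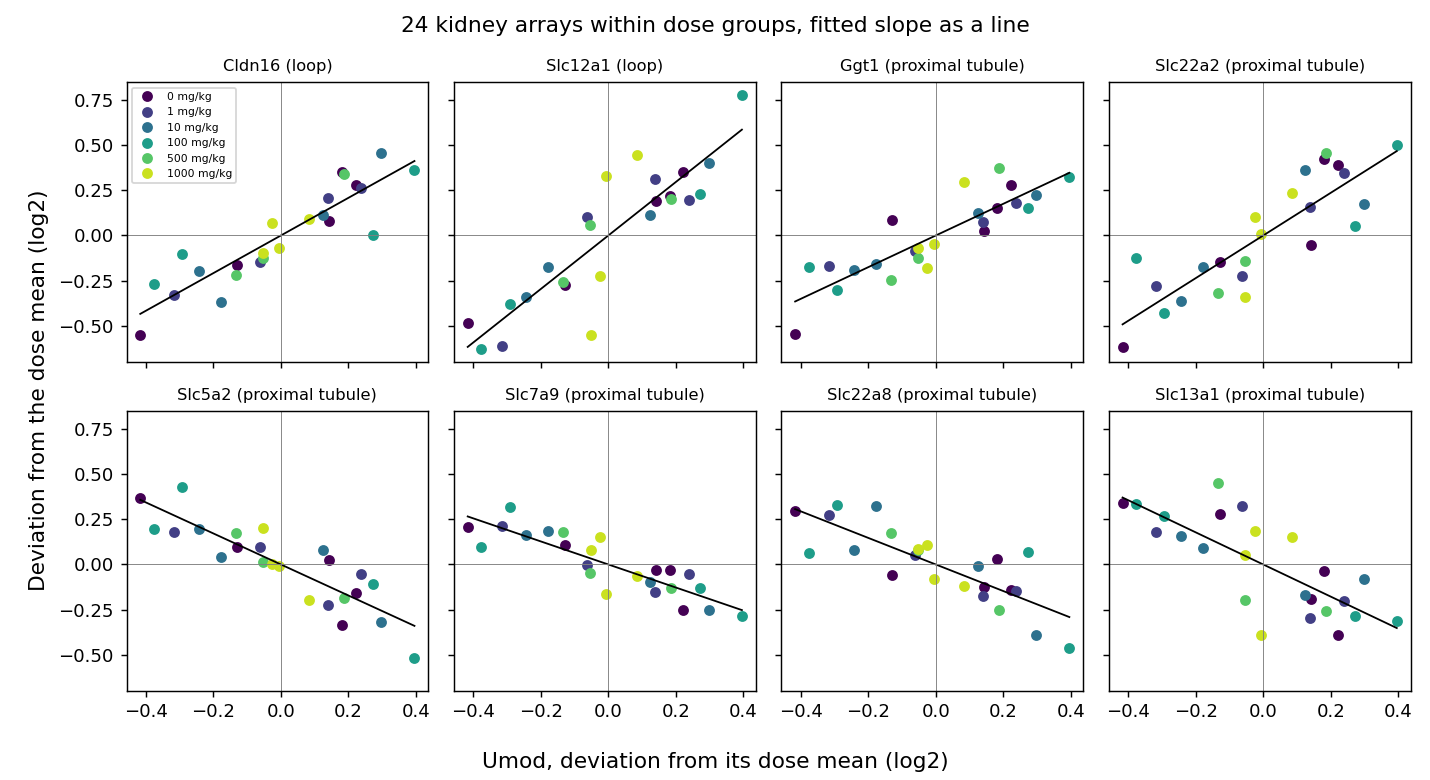
Each point is 1 of 24 kidney arrays, coloured by dose, as its log2 deviation from the mean of its dose, with Umod on the horizontal axis and 1 other marker on the vertical axis. The upper 4 markers climb with Umod and the lower 4 descend, with fitted slopes of 1.04, 1.48, 0.87, 1.18, -0.86, -0.64, -0.73 and -0.89 in the order shown.

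Genes of the same segments outside the marker list were read in the same fit. Of 12 other loop genes, 8 had a called positive slope on Umod and 0 a negative one, and of 32 other proximal tubule genes 9 were positive and 13 negative, where all genes had 4.98% positive and 3.35% negative. The 20 other principal cell genes had 5 positive and 3 negative slopes, the 16 other distal tubule genes 0 and 2, the 7 other podocyte genes 0 and 1, and the 13 other intercalated cell genes 0 of either sign. These lists were not matched to all genes by brightness. Of the 7108 brighter genes alone, 618 had a positive and 524 a negative called slope. With Slc12a1 in place of Umod, 7 markers had a positive and 10 a negative called slope, against 5.18% and 3.64% of all genes.

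When the Umod level of each array entered the fit of the doses as a covariate, 1 of 36 markers was called at 1000 mg/kg, against 2.27% of all genes. It was Slc7a9, with -0.30 ± 0.07 (SE, adjusted p = 0.0233). The trend then called 2 of 36 markers, against 2.05% of all genes, namely Slc5a2 (-0.06 per dose rank, adjusted p = 0.0284) and Slc7a9 (-0.05 per dose rank, adjusted p = 0.0485). Slc12a3 stayed uncalled, at -0.38 (adjusted p = 0.104).

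The promoters of 5 of these genes, chosen to show Umod and examples of each sign, are given from RefSeq on the rat build GRCr8, as the 250 bases before the annotated start, 5′ to 3′ on the strand of the gene. Cldn16 and Slc12a1 are the loop genes with positive slopes, and Slc5a2 and Slc7a9 are 2 of the 6 proximal tubule genes with negative ones. For Slc12a1 the first of 2 listed starts was used. Capitals mark TATAAA, the core of a TATA box, and GTTAAT, a core sequence of sites bound by the kidney and liver factor HNF1, searched on both strands without overlap between them.
Umod, chr1:183261017-183261266, minus strand: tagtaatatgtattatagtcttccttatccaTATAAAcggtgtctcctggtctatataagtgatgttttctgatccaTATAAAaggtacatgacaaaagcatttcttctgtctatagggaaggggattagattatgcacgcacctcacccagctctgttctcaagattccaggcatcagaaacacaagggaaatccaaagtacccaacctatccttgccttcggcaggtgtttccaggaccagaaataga
Cldn16, chr11:87814397-87814646, minus strand: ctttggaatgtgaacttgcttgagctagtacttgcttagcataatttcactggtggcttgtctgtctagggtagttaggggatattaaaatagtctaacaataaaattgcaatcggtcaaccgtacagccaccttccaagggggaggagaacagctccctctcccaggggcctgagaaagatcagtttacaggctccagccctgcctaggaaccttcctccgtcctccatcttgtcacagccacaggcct
Slc12a1, chr3:132859409-132859658, plus strand: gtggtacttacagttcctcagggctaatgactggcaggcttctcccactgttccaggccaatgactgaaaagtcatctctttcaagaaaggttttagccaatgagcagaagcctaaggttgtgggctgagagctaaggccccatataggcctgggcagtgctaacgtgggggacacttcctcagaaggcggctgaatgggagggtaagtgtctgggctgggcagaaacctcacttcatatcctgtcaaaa
Slc5a2, chr1:192277371-192277620, plus strand: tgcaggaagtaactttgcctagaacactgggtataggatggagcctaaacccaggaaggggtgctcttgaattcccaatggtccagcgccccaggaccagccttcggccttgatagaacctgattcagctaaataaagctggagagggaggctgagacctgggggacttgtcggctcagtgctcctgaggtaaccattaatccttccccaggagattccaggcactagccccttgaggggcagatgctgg
Slc7a9, chr1:97246632-97246881, plus strand: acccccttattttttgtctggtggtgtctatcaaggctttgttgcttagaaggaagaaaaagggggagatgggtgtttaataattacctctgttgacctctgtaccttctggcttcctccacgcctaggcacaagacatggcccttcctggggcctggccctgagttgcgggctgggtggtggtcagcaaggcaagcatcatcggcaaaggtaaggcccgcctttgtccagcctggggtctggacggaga
Umod held TATAAA at 2 places, whose first bases lay 219 and 173 bases before the start, and the other 4 windows held neither motif. TATAAA was present in 12.9% and GTTAAT in 6.45% of 33469 promoter windows of this length. Counting genes with a match at any of their listed starts, the shares were 14.1% and 7.13% of 27457 genes. Of 33 markers with a listed promoter, counted in the same way, 10 held TATAAA (30.3%) and 4 held GTTAAT (12.1%). The GTTAAT markers were Slc34a1, Slc22a8, Miox and Aqp2. A match is a run of letters and no more.

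Further lists were examined at 1000 against 0 mg/kg. Of 32 other proximal tubule genes, 3 were called, against 1.55% of all genes. An unadjusted limma p under 0.05 was found for 11 of the 32, against 13.3% of all genes. Slc2a2, the basolateral glucose transporter GLUT2, fell, with a mean of 9.77 ± 0.27 (SD, n = 4) at 1000 mg/kg and 10.30 ± 0.17 (SD, n = 5) at 0 mg/kg (difference -0.53, adjusted p = 0.0295). Pck1, the gluconeogenic enzyme PEPCK, rose, with 13.38 ± 0.17 (SD, n = 4) at 1000 mg/kg and 12.86 ± 0.25 (SD, n = 5) at 0 mg/kg (difference 0.52, adjusted p = 0.0366). Slc27a2, a fatty acid activating enzyme, rose by 0.24 (adjusted p = 0.0421). These 3 calls were close to the threshold and were lost on leaving out 1 array at a time, 6 of 24 arrays for Slc2a2, 6 for Pck1 and 14 for Slc27a2, with adjusted p up to 0.118, 0.128 and 0.166. Of 11 other settings, 4 ended the call of Slc2a2, 3 that of Pck1 and 5 that of Slc27a2 (adjusted p up to 0.176), among them the fit of the 2 groups alone for each. In the other lists of nephron genes, 0 of 7 podocyte, 0 of 12 loop, 0 of 16 distal tubule, 0 of 20 principal cell and 0 of 13 intercalated cell genes were called by limma, while 2, 0, 4, 4 and 0 of them, in that order, had an unadjusted p under 0.05, against 13.3% of all genes. S100g, calbindin-D9k, of the distal tubule list, had the smallest adjusted p among these, 0.0553, with 7.70 ± 0.44 (SD, n = 4) at 1000 mg/kg and 6.80 ± 0.26 (SD, n = 5) at 0 mg/kg.

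Of 22 regulators of salt, water and mineral transport, such as the aldosterone-induced kinase Sgk1, 0 were called by limma at 1000 mg/kg or in the trend, where 3 (13.6%, against 13.3% of all genes) and 0 (against 12.5%) had an unadjusted p under 0.05. Sgk1 averaged 10.47 ± 0.20 (SD, n = 4) at 1000 mg/kg and 11.05 ± 0.50 (SD, n = 5) at 0 mg/kg (adjusted p = 0.313). Hsd11b2, the enzyme that shields the aldosterone receptor from glucocorticoids, averaged 11.69 ± 0.27 (SD, n = 4) at 1000 mg/kg and 11.95 ± 0.08 (SD, n = 5) at 0 mg/kg (adjusted p = 0.352).

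Among 68 genes in 9 lists of other cells and of the inner medulla, 3 fell and 0 rose at 1000 mg/kg, 4.41% of them, against 1.55% of all genes. Itga8, an integrin of mesangial cells, fell by 0.41 (adjusted p = 0.00771), Mfap4, a matrix protein, by 1.39 (adjusted p = 0.0127), and Adgre1, the macrophage marker F4/80, by 0.80 (adjusted p = 0.0218), each the 1 call among 8 genes in its list, and these 3 were also the genes that fell in the trend, against 1.39% of all genes. At 1000 mg/kg, 5 of 8 fibroblast, 3 of 8 immune and 1 of 8 mesangial and vessel wall genes had an unadjusted limma p under 0.05. In the trend these counts were 6, 3 and 1. The shares of all genes were 13.3% and 12.5%. The other 6 lists, of endothelium, inner medulla, adipocytes, adrenal, hepatocytes and red cells, had 0 calls by limma in either test. They had 1, 2, 1, 1, 1 and 0 genes, in that order, at an unadjusted p under 0.05 at 1000 mg/kg. Leaving out single arrays ended the call of Mfap4 for 1 array, 1000 mg/kg replicate 3 (adjusted p = 0.071), and that of Adgre1 for 3, 1000 mg/kg replicates 2 and 3 and 0 mg/kg replicate 2 (adjusted p up to 0.0995). Of 10 other settings, 3 ended the Adgre1 call, among them the 2 groups alone (adjusted p = 0.0578) and the fit without the arrays high in adipocyte markers (adjusted p = 0.0575). The Itga8 call ended when all probe sets of a gene were averaged (adjusted p = 0.203) and without the arrays high in adipocyte markers (adjusted p = 0.0659). The mean level of the 8 fibroblast markers spanned 7.54 to 7.85 at 1000 mg/kg and 8.03 to 8.49 at 0 mg/kg, and that of the 8 immune markers 6.89 to 7.16 at 1000 mg/kg and 7.15 to 7.38 at 0 mg/kg. Adipocyte markers, 9 genes, stood apart on 7 arrays, by more than 0.5 log2 units over the 0 mg/kg mean and up to 2.53, of which 1 was at 0 mg/kg and none at 1000 mg/kg. Without these 7 arrays 0 of 37 markers were called at 1000 mg/kg. The part of the fibroblast and immune levels in the marker values was not tested.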

How the data were processed

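Total RNA of single tissue samples was hybridized to Affymetrix Rat Genome 230 2.0 arrays, according to the labels. Per the submitters' processing notes the deposited log2 values, 1 per probe set, came from RMA (version not given in the sources used here). Because RMA sets arrays to 1 common distribution, a shift of most genes together would not show. The table held 31099 probe sets, of which 57 were controls, 20826 had 1 symbol, 436 several and 9780 none, giving 14217 genes through the platform annotation and RefSeq.

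Kidney arrays were fitted with limma 3.58.1 (R 4.3.3), 1 mean per dose, contrasts against 0 mg/kg, a separate trend on dose rank, and a slope on Umod with dose as a factor. Adjusted p-values are Benjamini-Hochberg over all genes tested. In simulated data for 1000 against 0 mg/kg over 14217 genes, 86% of 50 genes changed 1.5-fold, 96% at 2-fold, 100% at 3-fold and 98% at 4-fold were called, and 11 unchanged genes. The noise there was independent between genes. The changed genes were drawn at random from all genes, whose median SD within doses was 0.15, against 0.21 for the markers. The rates are therefore not rates for the markers. The number of arrays limits precision.

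Members and lists were chosen with earlier results of these data known. Markers named with each array's value were those without overlap between 1000 and 0 mg/kg arrays and the 2 with the smallest p per segment, and from other lists called genes and up to 2 with the smallest p, not all of which are printed. Slopes and the Umod covariate were added after seeing the data. Samples were not treated as paired by replicate number, as 23 of 55 same-numbered pairs correlated over 0.1, the level set for pairing. The median correlation was 0.08 for same-numbered and -0.03 for other pairs. In Umod, replicate 4 lay below its dose mean at 0, 1, 10, 100 and 1000 mg/kg (-0.13, -0.32, -0.24, -0.29 and -0.03). Its replicate 3 lay above the dose mean at 1, 10, 100, 500 and 1000 mg/kg (0.24, 0.12, 0.40, 0.19 and 0.08). At 0 mg/kg that replicate lay below it (-0.42). Fits with replicate number as a block are given in the last section. Beyond those fits, a tie of values to replicate number was not tested.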

Additional observations from a re-analysis of the deposited data

Results flagged for a closer look

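In 9 of 185 groups of 4 or 5 kidney arrays, 1 array lay further from the rest of its dose group than the spread of the others accounts for by Dixon's test, a rate close to the 1 in 20 that chance gives. At 1000 mg/kg these were Lrp2 in replicate 1 (12.35, others 12.53 to 12.54), Slc12a3 in replicate 1 (9.08, others 8.97 to 8.99), Slc26a4 in replicate 1 (7.15, others 7.48 to 7.53) and Slc4a1 in replicate 3 (7.93, others 7.63 to 7.67). At 100 mg/kg Nphs1 stood low in replicate 3 (5.76, others 6.11 to 6.17). At 1 mg/kg Slc5a1 (4.71, others 4.90 to 4.93) and Miox (14.06, others 14.18 to 14.19) stood low in replicate 1, and Slc3a1 in replicate 4 (13.71, others 13.89 to 13.92). At 0 mg/kg Scnn1b was low in replicate 1 (7.16, others 7.26 to 7.29). The 3 low or high values of replicate 1 at 1000 mg/kg fall in 3 segments.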

How the results depend on the processing

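No nephron marker was called at 1, 10, 100 or 500 mg/kg under any alternative run. At 1000 mg/kg the count of 0 held except with the replicate block (3: Aqp1, Calb1, Slc7a9) and with Umod as a covariate (1), and the trend count of 0 except with Umod as a covariate (2) and in the range of 0 to 1 over arrays left out (1 without 1000 mg/kg replicate 2, Calb1). On Umod, leaving out each array gave 6 to 8 positive and 7 to 11 negative slopes, and the replicate block 6 positive and 5 negative ones, against 8 and 9 reported (lost: Aqp1, Slc4a1, Podxl, Slc22a6, Slc26a4 and Wt1). The cause was not tested. Over arrays left out, the Scnn1g difference at 1000 mg/kg ranged from -0.1542 to 0.0085, turning sign without 1000 mg/kg replicate 1. Over all genes, the 220 calls at 1000 mg/kg became 361 with the replicate block, 110 with the 2 groups alone, 109 without arrays high in adipocyte markers and 97 to 329 over arrays left out. Counts moved by over 1.5 times were 97 without 1000 mg/kg replicate 3, and 130, 128 and 139 without 0 mg/kg replicates 2, 3 and 4. The split of 72 higher and 148 lower became 138 and 107 with arrays centred on their medians, 100 and 134 with quantile normalization and 85 and 101 with brighter genes only. The 198 trend calls became 111 with brighter genes only, 102 without arrays high in adipocyte markers, and 129 and 115 without 1000 mg/kg replicates 1 and 3. For Pvalb and Slc5a1 the kidney arrays did not all exceed those of liver, and signal over background was not measured.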
